A study of Mus musculus with 8 samples.

Results

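The cytotoxic granule genes examined here are Gzma, Gzmb and Gzmk (granzymes), Prf1 (perforin), Nkg7, Serpinb9, Serpinb6b, Ctsw (cathepsin W) and Srgn (serglycin), 9 genes of the 19938 measured in mouse helper T cells. A gene was taken where a probeset of the array was paired with its symbol and no other, and each of the 9 had 1 such probeset. RNA was measured on 8 Affymetrix arrays, 2 for each of 4 groups, named biological replicates in the labels. The starting cells were naive CD4+ T cells (CD25-, CD62L high, CD44 low) that came by sorting from lymph nodes and spleens, and the C57BL/6 donors were either wild-type or Tet2-/-. All cultures were stimulated through CD3 and CD28 with IL-4 blocked. Th1 cultures of both genotypes received 10 ng/ml IL-12 and 30 U/ml IL-2. Th17 cultures of both genotypes received IL-6 at 10 ng/ml and TGF-β1 at 0.5 ng/ml with interferon-γ blocked and no IL-2 listed, so the cell type and its cytokines cannot be told apart. Possible use of IL-1β and IL-23 in the Th17 cultures, how the Tet2-/- allele was made, how many mice each sample pooled, their age and the length of culture are not given in the sources used here.

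Cytotoxic granules are secretory lysosomes, best known from CD8 T cells and NK cells, that deliver granzymes into a target cell through pores formed by perforin. Serglycin is the proteoglycan core on which granzymes are packed, NKG7 is a granule membrane protein needed for efficient release, and intracellular serpins protect the cell that carries the granule from its own proteases. CD4 T cells can also take up parts of this program, Th1 cells more than other helper subsets. Tet2 oxidises methylated cytosine in DNA and is known in T cells for its part in demethylation of cytokine genes.

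The deposited values are log2 signals, 1 per probeset and array, and carry no detection flag. As a yardstick for signal without a transcript, 1194 olfactory and vomeronasal receptor genes were used, which T cells are not known to need. Their 95th percentile of group means was 6.86 in wild-type Th1, 6.92 in Tet2-/- Th1, 6.54 in wild-type Th17 and 6.56 in Tet2-/- Th17 cells, and a group mean at or under it is called not above the receptor level. Genes with an adjusted p under 0.05 (limma, Benjamini-Hochberg over the 19938 genes) are said to be called. The Tet2 probeset itself read 8.14 and 8.03 in wild-type and 8.12 and 7.97 in Tet2-/- Th1 cells, and 8.53 and 8.51 against 8.37 and 8.42 in Th17 cells; with its place relative to the deletion unknown, it does not check the genotype labels. All 6 measured CD4 T cell markers (Cd3e, Cd3d, Cd3g, Cd4, Cd5, Cd28) were above the receptor level in every group. None of the 2 CD8 T cell markers, the 7 mast cell and basophil markers or the 7 myeloid markers was above it in any group, and of 8 NK cell markers only Klrd1 was, in Tet2-/- Th17 cells. Per array, the mean level of the NK list lay between 5.02 and 5.10 in Th1 cells and between 5.01 and 5.35 in Th17 cells, and that of the CD8 list between 6.32 and 6.56 and between 6.23 and 6.33. The remaining markers above it were Cd79b of 3 B cell genes, in both Th17 groups, and, of 2 gamma-delta T cell genes, Sox13 in all 4 groups and Blk in wild-type Th17 cells. In bulk RNA, fewer cells with a transcript and less transcript per cell cannot be told apart. Sex-linked transcripts set the Th17 arrays apart: the mean of 3 Y-linked genes was 7.94 to 8.24 on the 4 Th1 arrays, but 4.85 on Tet2-/- Th17 replicate 2, and Xist lay between 8.62 and 11.3 on 3 of the 4 Th17 arrays and at 5.11 or lower on the Th1 arrays.

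The first comparison asked how the granule genes differ between the helper cell types. Gzmb, Nkg7, Serpinb9, Serpinb6b and Prf1 were called lower in Th17 than in Th1 cells in both genotypes, and none of the 9 was called higher. The fall was 7.23-fold to 28.7-fold in wild-type cells for the first 4 genes and 1.97-fold for Prf1. Ctsw and Srgn, both well above the receptor level in every group, were not called, and Gzma and Gzmk did not rise above that level in any group. Over all genes, 8.47% were called between the wild-type cell types, 3.17% lower and 5.30% higher in Th17 cells. Between the Tet2-/- cell types, 10.4% were called, 3.29% lower and 7.14% higher in Th17 cells. In both genotypes at once, 1.62% of all genes were called lower and 3.67% higher in Th17 cells, and 5 of the 9 granule genes were called lower. Without overlap of the arrays, 7 of the 9, Gzmk among them, were lower in wild-type Th17 cells, where 26.7% of all genes were, and 1 was higher, where 25.2% were. In Tet2-/- cells these were 5 of the 9, where 27.6% of all genes were lower, and 1, where 28.8% were higher. The median difference of the 9 genes was -0.98 in wild-type and -0.79 in Tet2-/- cells on the log2 scale, beside -0.01 and -0.01 over all genes. Each of these differences is given as Th17 minus Th1.

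**Figure D1:**
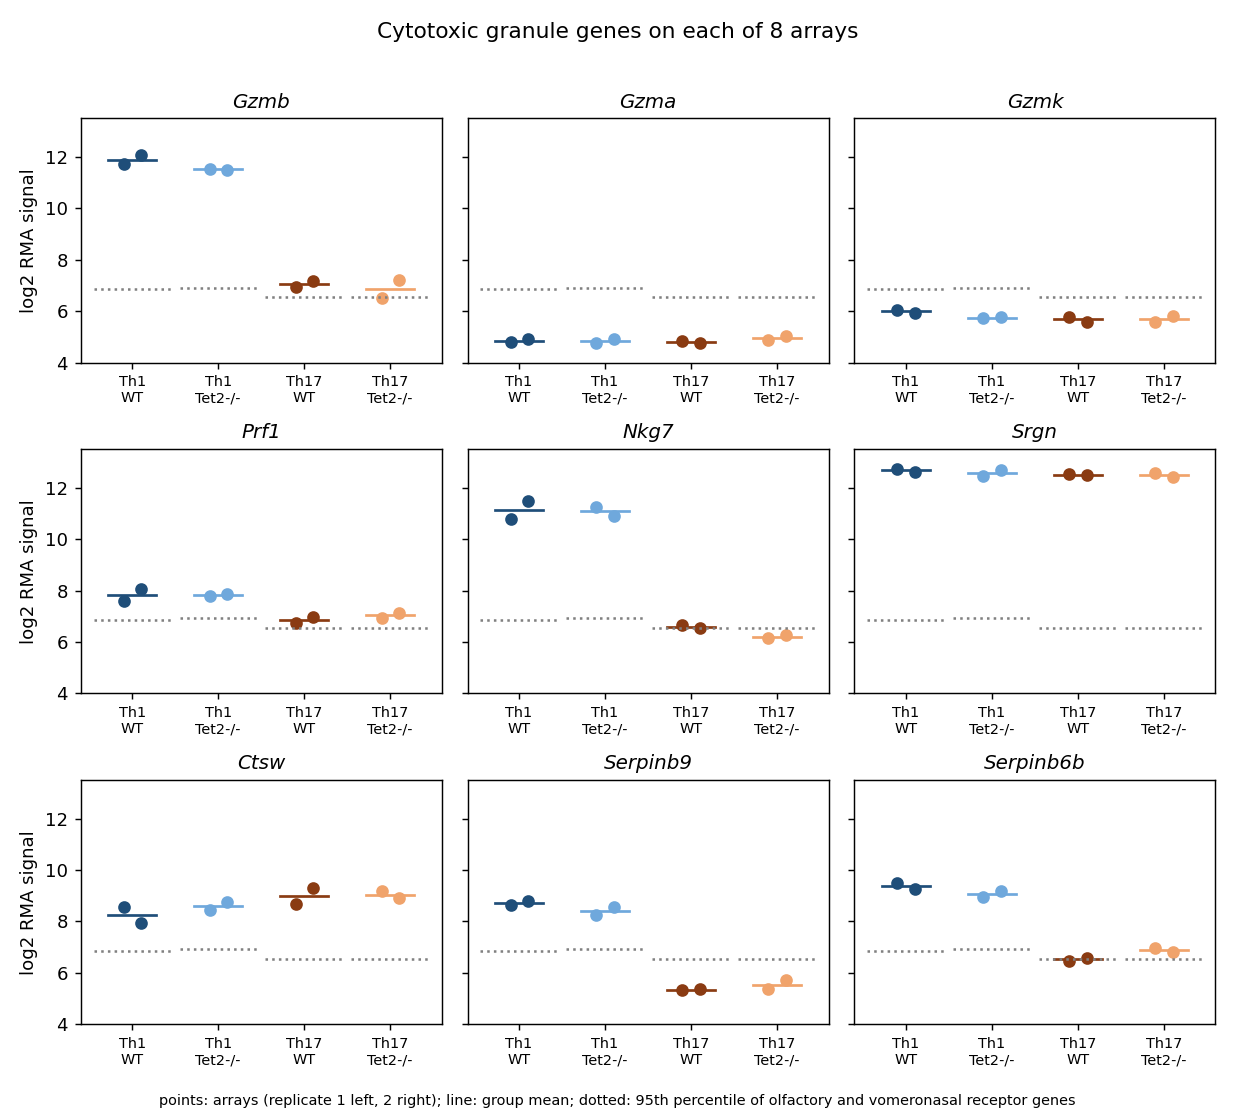
Log2 RMA signal (vertical axis) of each cytotoxic granule gene on the 8 arrays, by group (horizontal axis); points are arrays, lines are group means and dotted lines the 95th percentile of the olfactory and vomeronasal receptor genes. Gzmb lies at 11.50 to 12.09 on the Th1 arrays and at 6.51 to 7.21 on the Th17 arrays, whereas Srgn lies between 12.41 and 12.74 on all 8.

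Gzmb encodes granzyme B, the protease that enters target cells and activates caspases. Its log2 signal was 11.71 and 12.09 on the wild-type Th1 arrays, 11.55 and 11.50 on the Tet2-/- Th1 arrays, 6.96 and 7.16 on the wild-type Th17 arrays and 6.51 and 7.21 on the Tet2-/- Th17 arrays. All 4 Th1 arrays lay far above all 4 Th17 arrays, and both Th17 group means stayed above the receptor level. The difference was -4.84 ± 0.20 (SE, n = 2 against 2 arrays; 95% interval -5.28 to -4.41) in wild-type cells, a 28.7-fold lower signal (adjusted p = 3.04e-08, limma). In Tet2-/- cells it was -4.66, a 25.4-fold lower signal (adjusted p = 4.02e-08, limma).

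Nkg7, whose product sits in the granule membrane, had nearly the same pattern. Its signal was 10.78 and 11.48 in wild-type Th1, 11.26 and 10.91 in Tet2-/- Th1, 6.66 and 6.54 in wild-type Th17 and 6.16 and 6.26 in Tet2-/- Th17 cells. The cell types did not overlap, and the Tet2-/- Th17 mean of 6.21 was not above the receptor level. The difference of -4.53 ± 0.20 (SE) in wild-type cells was a 23.2-fold lower signal (adjusted p = 3.49e-08, limma), and that of -4.87 ± 0.20 in Tet2-/- cells a 29.3-fold lower signal (adjusted p = 2.14e-08). Where a Th17 mean is not above the receptor level, the fold describes array signal and need not equal the ratio of transcripts.

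The serpins divided the cell types as cleanly. Serpinb9 encodes an inhibitor of granzyme B that protects the cell making it. It read 8.63 and 8.78 in wild-type Th1, 8.26 and 8.56 in Tet2-/- Th1, 5.31 and 5.38 in wild-type Th17 and 5.36 and 5.71 in Tet2-/- Th17 cells. Both Th17 means were not above the receptor level, and the lowest Th1 array lay above the highest Th17 array. The difference was -3.36 ± 0.14 (SE; 10.3-fold, adjusted p = 3.49e-08, limma) in wild-type and -2.88 ± 0.14 (7.34-fold, adjusted p = 1.36e-07) in Tet2-/- cells. Serpinb6b, a related serpin known in the mouse as an inhibitor of granzyme A, read 9.49 and 9.26 in wild-type Th1, 8.96 and 9.17 in Tet2-/- Th1, 6.45 and 6.59 in wild-type Th17 and 6.96 and 6.82 in Tet2-/- Th17 cells. Its arrays did not overlap between cell types either, and its wild-type Th17 mean of 6.52 was not above the receptor level while its Tet2-/- Th17 mean of 6.89 was. The difference was -2.85 ± 0.13 (SE; 7.23-fold, adjusted p = 6.33e-08, limma) in wild-type and -2.17 ± 0.13 (4.51-fold, adjusted p = 8.06e-07) in Tet2-/- cells. The granzyme A that Serpinb6b is known to block was itself not above the receptor level in these cells.

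Prf1, the pore former without which granzymes do not reach the target's cytosol, differed less. Its signal was 7.61 and 8.07 in wild-type Th1, 7.78 and 7.88 in Tet2-/- Th1, 6.75 and 6.98 in wild-type Th17 and 6.95 and 7.14 in Tet2-/- Th17 cells. All 4 group means were above the receptor level, and the cell types did not overlap. The difference was -0.98 ± 0.15 (SE; 95% interval -1.31 to -0.64), or 1.97-fold, in wild-type cells (adjusted p = 0.00197, limma), and -0.79 ± 0.15 (1.73-fold, adjusted p = 0.00636) in Tet2-/- cells. The Tet2-/- call rests on one array among others: without Tet2-/- Th17 replicate 1 the difference was -0.69 (adjusted p = 0.0794, limma).

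Ctsw and Srgn did not share this pattern. Cathepsin W, a papain-like cysteine protease found mainly in CD8 T cells and NK cells, read 8.58 and 7.96 in wild-type Th1, 8.46 and 8.77 in Tet2-/- Th1, 8.67 and 9.28 in wild-type Th17 and 9.19 and 8.90 in Tet2-/- Th17 cells. Within each genotype both Th17 arrays were higher than both Th1 arrays, the opposite order from Gzmb, but across genotypes the cell types overlapped. The difference of 0.71 ± 0.22 (SE; 95% interval 0.22 to 1.19) in wild-type cells was not past the threshold (adjusted p = 0.0732, limma), nor was that of 0.43 ± 0.22 in Tet2-/- cells (adjusted p = 0.269). Without wild-type Th17 replicate 1 the wild-type difference was 1.02 (adjusted p = 0.0331), and without wild-type Th1 replicate 1 it was 1.02 (adjusted p = 0.0346). Without wild-type Th17 replicate 2 it was 0.40 (adjusted p = 0.466), and without wild-type Th1 replicate 2 it was 0.40 (adjusted p = 0.340, limma).

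Srgn signal was high in every group and far above the receptor level. It read 12.74 and 12.62 in wild-type Th1, 12.46 and 12.68 in Tet2-/- Th1, 12.54 and 12.50 in wild-type Th17 and 12.59 and 12.41 in Tet2-/- Th17 cells. The wild-type arrays did not overlap between cell types and the Tet2-/- arrays did. The difference was -0.17 (95% interval -0.45 to 0.11) in wild-type and -0.07 (-0.35 to 0.21) in Tet2-/- cells (adjusted p = 0.474 and 0.792, limma). Whether its probeset still responds in proportion at this signal was not tested. Serglycin is also made by many leukocytes that carry no cytotoxic granules.

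Gzma, a trypsin-like granzyme, read 4.77 to 5.03 over the 8 arrays, and Gzmk, a related granzyme, 5.58 to 6.05. Neither was above the receptor level in any group, so no difference between groups is read for either, though both stay in the counts over the 9 genes. Of 7 other granzyme genes, none was above that level in any group and none was called between cell types in either genotype. On these arrays granzyme B was the 1 granzyme of 10 measured with a signal above the receptor level.

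**Figure D2:**
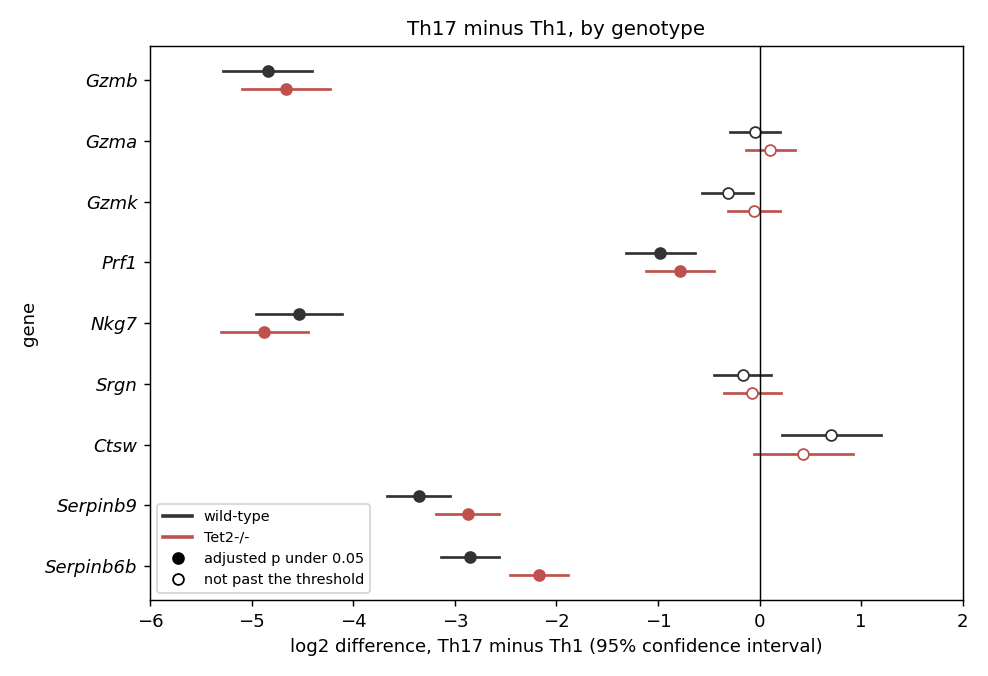
Log2 difference, Th17 minus Th1 (horizontal axis), for each granule gene (vertical axis) in wild-type and Tet2-/- cells; points are fitted differences, bars 95% intervals and filled points have an adjusted p under 0.05. Gzmb, Nkg7, Serpinb9, Serpinb6b and Prf1 lie left of 0 in both genotypes, from -4.87 to -0.79, while Ctsw lies to the right of 0 and is not filled.

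Dim signal as a whole was somewhat higher on the Th1 arrays. The median receptor gene was lower in Th17 cells by a log2 difference of -0.27 in wild-type and -0.25 in Tet2-/- cells, beside -0.01 and -0.01 over all genes. Of the 1194 receptor genes, 143 were called lower in wild-type and 172 in Tet2-/- Th17 cells, beside 633 and 655 of all 19938 genes. The part of this shift in the calls of other dim genes was not tested. The differences of Gzmb, Nkg7, Serpinb9 and Serpinb6b were many times larger than the median shift of the receptor genes, and that of Prf1 exceeded it by less. With every array centred on the median receptor gene, a setting added after the data were seen that moved the all-gene median by 0.31 in wild-type and 0.29 in Tet2-/- cells, all 5 genes were still called lower in both genotypes. The prior degrees of freedom of the limma fit also rose from 8.44 to 42.4, so its p-values are not directly comparable with those of the main fit. Under that centring Ctsw was called higher in Th17 cells, at 1.02 in wild-type (adjusted p = 0.000386, limma) and 0.72 in Tet2-/- cells (adjusted p = 0.00924), and Gzma, not above the receptor level, at 0.39 in Tet2-/- cells (adjusted p = 0.0327). Relative to the all-gene median of that setting (0.29 and 0.28), Ctsw lay as far above the bulk of genes as it did without the centring. Srgn then stood at 0.14 and 0.22, on the other side of 0.

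The start regions are printed for the 5 genes called lower in both genotypes. RUNX and T-box factors, known regulators of this program, have short recognition cores. A cause shared by the 5 genes was not tested. Each window runs from 250 bases before to 50 bases after the start site of the RefSeq annotation (GRCm38.p6), 5′ to 3′ on the gene's strand, and capitals mark TGTGGT (RUNX core) and AGGTGT (T-box core) on either strand; the 2 motifs did not overlap in these windows.
Gzmb (chr14:56262285-56262584, minus strand): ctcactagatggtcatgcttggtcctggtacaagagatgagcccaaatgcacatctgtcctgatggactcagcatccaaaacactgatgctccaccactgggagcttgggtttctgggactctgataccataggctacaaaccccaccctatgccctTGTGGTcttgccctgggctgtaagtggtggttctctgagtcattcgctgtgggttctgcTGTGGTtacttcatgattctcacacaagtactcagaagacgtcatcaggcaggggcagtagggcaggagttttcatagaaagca
Prf1 (chr10:61297586-61297885, plus strand): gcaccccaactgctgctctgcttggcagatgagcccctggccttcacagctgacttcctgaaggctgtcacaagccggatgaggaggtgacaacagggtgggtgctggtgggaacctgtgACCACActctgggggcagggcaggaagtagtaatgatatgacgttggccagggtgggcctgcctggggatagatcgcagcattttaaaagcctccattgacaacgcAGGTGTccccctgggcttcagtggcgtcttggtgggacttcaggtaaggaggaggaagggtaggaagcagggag
Nkg7 (chr7:43436888-43437187, plus strand): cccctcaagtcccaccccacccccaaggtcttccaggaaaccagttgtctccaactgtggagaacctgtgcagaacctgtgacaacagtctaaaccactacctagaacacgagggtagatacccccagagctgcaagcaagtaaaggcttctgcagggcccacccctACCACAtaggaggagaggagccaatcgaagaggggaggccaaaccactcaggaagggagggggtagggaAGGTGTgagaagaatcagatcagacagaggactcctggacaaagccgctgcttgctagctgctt
Serpinb9 (chr13:33004291-33004590, plus strand): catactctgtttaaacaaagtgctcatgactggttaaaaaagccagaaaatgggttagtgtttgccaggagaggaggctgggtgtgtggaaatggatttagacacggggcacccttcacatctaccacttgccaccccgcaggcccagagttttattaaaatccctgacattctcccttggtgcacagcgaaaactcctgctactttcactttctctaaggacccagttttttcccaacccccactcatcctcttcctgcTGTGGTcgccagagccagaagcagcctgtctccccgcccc
Serpinb6b (chr13:32965011-32965310, plus strand): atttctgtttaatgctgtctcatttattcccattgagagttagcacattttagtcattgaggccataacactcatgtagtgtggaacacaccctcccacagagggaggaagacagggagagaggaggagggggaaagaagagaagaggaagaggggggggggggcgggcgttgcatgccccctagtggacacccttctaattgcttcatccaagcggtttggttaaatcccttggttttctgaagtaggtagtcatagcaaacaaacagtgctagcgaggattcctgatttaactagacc

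The RUNX letters occurred in the windows of Gzmb, Prf1, Nkg7 and Serpinb9, and the T-box letters in those of Prf1 and Nkg7. In Gzmb the RUNX letters stood on the plus strand of the gene at -93 to -88 and again at -34 to -29 from the start site. In Prf1 they stood on the opposite strand at -130 to -125, with T-box letters at -24 to -19, and in Nkg7 on the opposite strand at -83 to -78, with T-box letters at -14 to -9. In Serpinb9 they lay behind the start site, at 11 to 16, and the Serpinb6b window held neither motif. Of 32851 RefSeq windows of the same length, 16.8% held the RUNX letters and 13.7% the T-box letters. Of the 9 windows of the 8 granule genes with an entry, 6 held the RUNX letters and 4 the T-box letters, among them windows of Gzma and Gzmk, which were not above the receptor level. CpG pairs, the substrate of Tet enzymes when methylated, numbered 2 in the Gzmb window, 3 in Nkg7, 4 in Serpinb6b, 5 in Prf1 and 5 in Serpinb9, beside a median of 7 over all windows (quartiles 3 and 20). A match of letters is no evidence of binding, and DNA methylation was not measured on these arrays.

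The neighbours of the 5 called genes, taken as up to 6 on each side, differed from place to place. Gzmb lies at the end of a cluster of granzyme genes on chromosome 14, and the 6 genes next to it on that side, Gzme, Gzmd, Gzmg, Gzmn, Gzmf and Gzmc, had wild-type differences of -0.39 to -0.09 and were not called. None of the 6 was above the receptor level in any group, so a lower signal in Th17 cells could not be read. On the other side of Gzmb, Atp12a was called lower in Tet2-/- cells alone (-0.42, adjusted p = 0.0428, limma), with a wild-type difference of 0.09. The wild-type Th1 mean of Atp12a was 5.59, not above the receptor level. Among the neighbours of Prf1 on chromosome 10, Slc29a3 was called lower in both genotypes (-0.59, adjusted p = 0.0177, and -0.67, adjusted p = 0.00708), beside -0.98 and -0.79 for Prf1. Adamts14, next to Prf1, was called lower in Tet2-/- cells (-0.39, adjusted p = 0.0425) and stood at -0.27 in wild-type cells (adjusted p = 0.157). Serpinb6b and Serpinb9 are adjacent on chromosome 13 in a cluster of clade B serpins. Beside them, Serpinb1c, Serpinb9b, Serpinb1b, Serpinb9c, Serpinb9d and Serpinb9e were not called in either genotype, with wild-type differences of -0.37 to 0.01. Their wild-type Th1 means of 3.94 to 6.76 were not above the receptor level, so a lower signal in Th17 cells could not be read. The cluster also held the opposite case. Serpinb1a, an inhibitor of neutrophil-type serine proteases, was higher in Th17 cells by 2.10 in wild-type (adjusted p = 8.15e-05, limma) and by 1.92 in Tet2-/- cells (adjusted p = 0.000144). Its wild-type Th1 mean was 5.41, not above the receptor level, and it was above that level in both Th17 groups. Cldnd2, next to Nkg7 on chromosome 7, was called lower in Th17 cells at -0.63 (adjusted p = 0.0428) and -0.96 (adjusted p = 0.00369), but was not above the receptor level in any group.

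**Figure D3:**
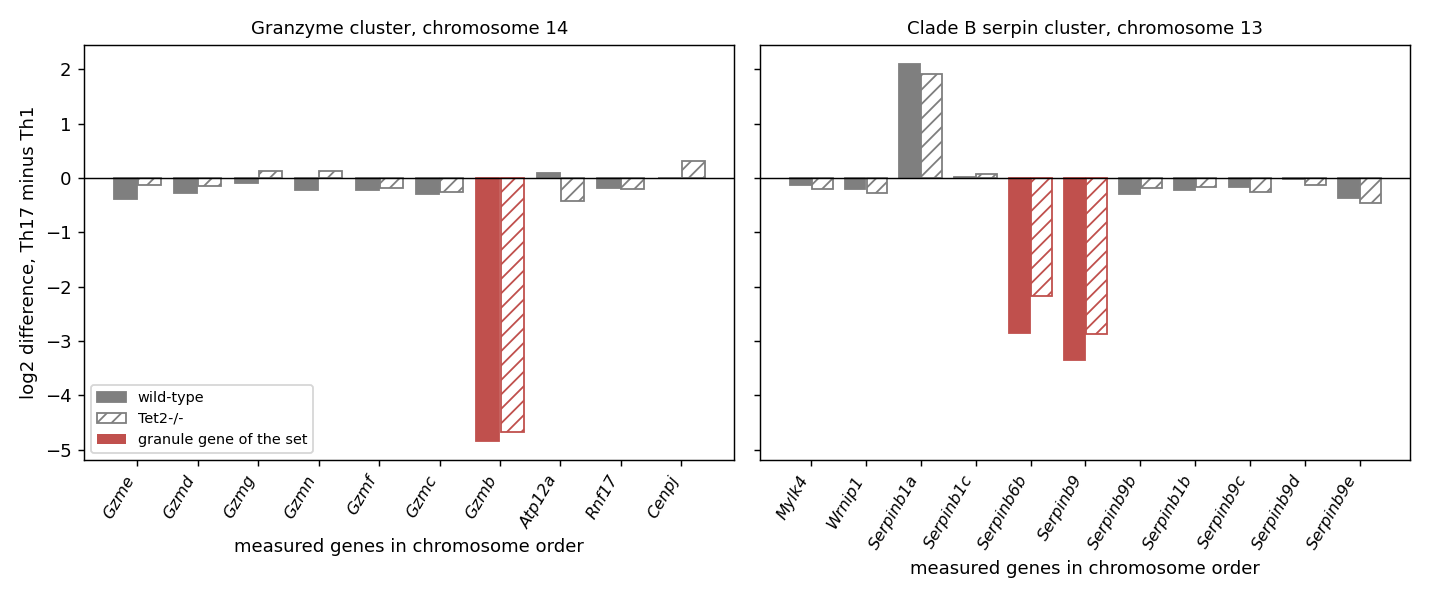
Log2 difference, Th17 minus Th1 (vertical axis), of the measured genes around Gzmb and around Serpinb6b and Serpinb9 in chromosome order (horizontal axis); solid bars are wild-type and hatched bars Tet2-/-, with the granule genes in red. The granzyme genes beside Gzmb lie between -0.39 and 0.13 and were not above the receptor level in any group. Gzmb lies at -4.84 and -4.66, and Serpinb1a rises to 2.10. Serpinb1b, Serpinb1c, Serpinb9b, Serpinb9c, Serpinb9d and Serpinb9e were not above that level in wild-type Th1 cells.

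Over the 8 arrays, the called genes varied together. Gzmb correlated with Nkg7 at a Pearson r of 0.995, with Serpinb9 at 0.996, with Serpinb6b at 0.981 and with Prf1 at 0.955. Ctsw ran the other way against Gzmb (r = -0.757), and Srgn was in between (r = 0.535). The arrays fall into 2 sets by cell type, so these values mostly restate that split, and no p is given. The nearest genes by the same measure were taken with predicted genes (symbols of Gm and a number, or with Rik) left out. The 5 nearest to Gzmb were Gpm6b (0.998), Serpinb9 (0.996), Nkg7 (0.995), Psmb9 (0.994) and Tap2 (0.994). The nearest to Nkg7 were Gpm6b, Ccl3, Gzmb, Clic4 and Olfr354, at 0.997 to 0.993. The nearest to Prf1 were Camk4, Ms4a4a, Krtap11-1, Ttc7b and Olfr796, at 0.989 to 0.977. Olfactory receptor genes appear beside Nkg7 and Prf1, and the part of the shift in dim signal given above was not tested here.

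The rest of the cytotoxic pathway differed between cell types gene by gene. Over all genes, 3.17% were called lower and 5.30% higher in wild-type Th17 cells, and 3.29% and 7.14% in Tet2-/- Th17 cells. Of 4 death ligands, which kill through receptors rather than granules, 2 were called lower in wild-type Th17 cells, Fasl (-1.68, adjusted p = 1.48e-06, limma) and Tnfsf10 (-0.85, adjusted p = 0.00207). In Tet2-/- cells 3 were, Fasl (-1.64), Tnfsf10 (-1.08) and Lta (-1.02). Fasl was not above the receptor level in either Th17 group, with means of 6.44 in wild-type and 6.18 in Tet2-/- cells. Tnfsf10 was not above it in Tet2-/- Th17 cells (6.55) and lay close to it in wild-type Th17 cells (6.63). For these 2 genes the differences describe array signal. Of 6 cathepsins and processing proteases, among them Ctsc, which trims granzymes to their active form, none was called in either genotype. Ctsl differed by 1.13 in wild-type (adjusted p = 0.0767, limma) and by 0.84 in Tet2-/- cells (adjusted p = 0.178), and it was called in 5 and 4 of 17 alternatives, with values from 0.38 to 1.88 and from 0.43 to 1.25. Of 9 further protecting serpins measured, Serpinb1a was the 1 called, as above.

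The genes that move and fuse granules held calls in both directions. Of 18 measured genes of granule membrane and release, 14 were above the receptor level in both Th1 groups and 15 in both Th17 groups, Rab27a, Unc13d and Stx11 among them. In wild-type Th17 cells 2 were called higher, Dock2 (0.72) and Stx11 (0.49, adjusted p = 0.0224, limma), and 1 lower, Lyst (-1.23, adjusted p = 0.000414), the gene of a lysosomal trafficking regulator. In Tet2-/- Th17 cells 3 were called higher, Dock2 (0.77), Vamp7 (0.75) and Kif5b (0.64). These are 3 of the 18 in each genotype, beside the 8.47% and 10.4% of all genes called. Of 8 genes for the sugar chains that serglycin carries, 2 were called in wild-type cells, Xylt2 higher (0.57) and Chst11, a chondroitin sulphotransferase, lower (-0.91). In Tet2-/- cells 4 were called, Xylt2 (0.59) and Chst12 (0.58) higher and Chst11 (-1.02) and Chsy1 (-0.43) lower. These 2 and 4 of the 8 stand beside the same 8.47% and 10.4% of all genes. The core protein gene Srgn itself was not called in either genotype.

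Of 18 measured regulators of the cytotoxic program, 7 were called lower and 5 higher in wild-type Th17 cells, beside 3.17% and 5.30% of all genes. This list was chosen with earlier results of these data known. The lower ones were Zeb2 (-1.01), Hopx (-0.86), Nfil3 (-0.71), Tbx21 (-2.56), the T-bet gene that drives Th1 differentiation, Prdm1 (-1.64), Eomes (-1.31) and Runx3 (-0.87). The higher ones were Stat5b (0.65), a transducer of IL-2 signals, Bcl6 (1.18), Id2 (1.02), Runx1 (0.97) and Bach2 (0.89). In Tet2-/- cells the same 7 were called lower, Tbx21 at -3.30, and 4 higher (Stat5b, Bcl6, Id2 and Runx1), beside 3.29% and 7.14% of all genes. Of the lower ones, Prdm1 was not above the receptor level in either Tet2-/- group or in wild-type Th17 cells. Of the higher ones, Bcl6 was not above it in either Th1 group. The list thus held genes called in both directions. It was not sorted into genes that raise and genes that lower the program. Its median difference of -0.20 in wild-type cells is therefore not comparable with the -0.98 of the 9 granule genes.

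**Figure D4:**
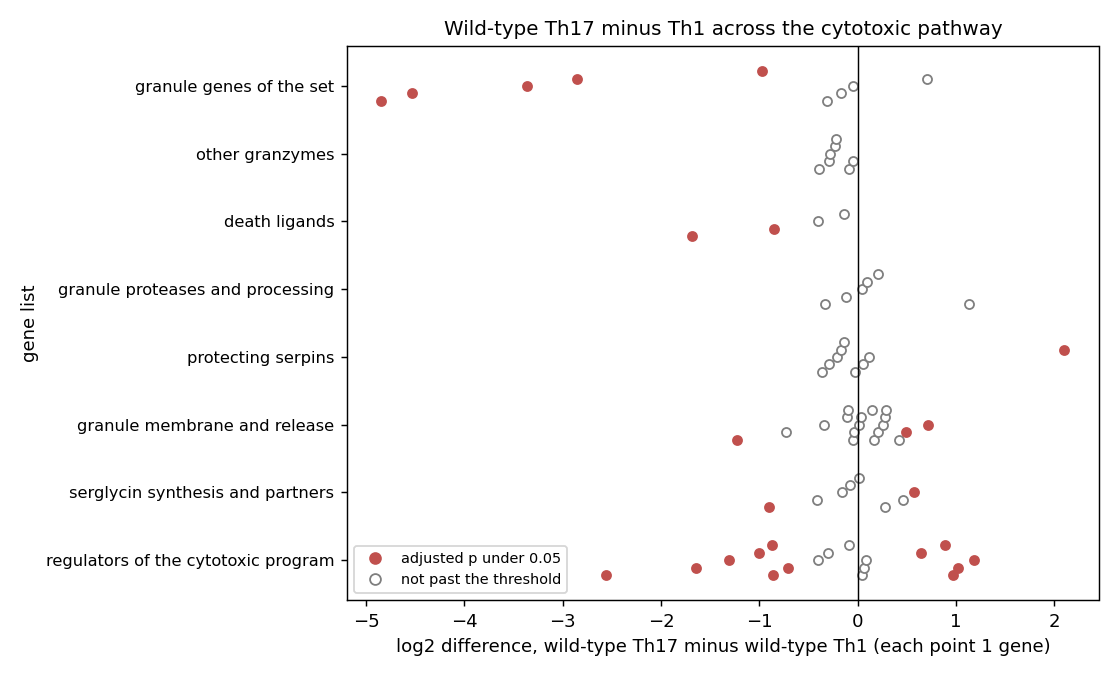
Log2 difference between wild-type Th17 and wild-type Th1 cells (horizontal axis) for every measured gene of each pathway list (vertical axis); each point is 1 gene and filled red points have an adjusted p under 0.05. The granule genes reach from -4.84 to 0.71, the other granzymes stay between -0.39 and -0.05, and the regulators spread from -2.56 to 1.18.

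The second comparison asked whether loss of Tet2 alters the granule genes in either cell type, and none of the 9 was called in Th1 or in Th17 cells. In the background, 0.00502% of all genes were called in Th1 cells, which is 1 gene, Ifng (-1.42, adjusted p = 0.00391, limma), and 0.00% in Th17 cells. In Th1 cells the 9 differences, Tet2-/- minus wild-type, ran from -0.38 (Gzmb) to 0.35 (Ctsw), with 8 of the 9 below 0 and adjusted p from 0.835 to 0.999. In Th17 cells they ran from -0.39 (Nkg7) to 0.37 (Serpinb6b), with 6 of the 9 above 0 and adjusted p from 0.987 to 0.999. Leaving out 1 Th1 array moved several Th1 values by over 1.5 times, with every adjusted p still above the threshold. Gzmb was -0.19 without wild-type replicate 2 and -0.57 without wild-type replicate 1, and Ctsw was 0.035 and 0.66 without the same arrays. Serpinb9 was -0.14 without Tet2-/- replicate 1 and -0.45 without Tet2-/- replicate 2, and Serpinb6b was -0.20 without wild-type replicate 1 and -0.21 without Tet2-/- replicate 1. The median was -0.11 in Th1 and 0.07 in Th17 cells, beside 0.01 and 0.02 over all genes. All 9 intervals lay within ±1 in both cell types, so a change of array signal by 1 log2 unit lay outside each interval, and the widest bounds were -0.82 and 0.83. For the median gene, a difference of 0.27 reached an unadjusted p of 0.05.

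In Th1 cells, Gzmb was lower on both Tet2-/- arrays than on both wild-type arrays, with a difference of -0.38 (95% interval -0.82 to 0.05; unadjusted p = 0.0796, adjusted p = 0.853, limma). Serpinb9 (-0.29), Serpinb6b (-0.31) and Gzmk (-0.24) also did not overlap, each lower in Tet2-/- cells, and Gzmk was not above the receptor level. Of all genes, 14.4% were lower in Tet2-/- Th1 cells without overlap, so 4 of 9 is read beside that share. Serpinb6b was the 1 granule gene with an unadjusted p under 0.05 in Th1 cells (0.0331, adjusted 0.835), beside 5.74% of all genes. Nkg7 (-0.04), Prf1 (-0.01), Srgn (-0.11) and Ctsw (0.35) overlapped between genotypes. The 2 wild-type Th1 arrays differed from each other by more than the genotypes did for Nkg7 and Prf1, and leaving out wild-type Th1 replicate 2 turned both differences above 0, as did leaving out Tet2-/- Th1 replicate 1 for Prf1 and replicate 2 for Nkg7.

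In Th17 cells, Nkg7 was lower on both Tet2-/- arrays, at 6.16 and 6.26 against 6.66 and 6.54, with a difference of -0.39 (95% interval -0.81 to 0.04; adjusted p = 0.999, limma) close to the receptor level. Serpinb6b was higher on both Tet2-/- arrays, by 0.37 (95% interval 0.08 to 0.65; unadjusted p = 0.0155, adjusted p = 0.987), and it was the 1 granule gene with an unadjusted p under 0.05 there, beside 4.25% of all genes. Gzma, not above the receptor level, was the other gene higher on both Tet2-/- arrays. Without overlap, 1 of the 9 was thus lower, where 13.3% of all genes were, and 2 were higher, where 19.9% were. Gzmb spanned 6.51 to 7.21 on the Tet2-/- Th17 arrays, which enclosed both wild-type arrays. Tet2-/- Th17 replicate 1, the array with the lowest Gzmb, and replicate 2 also differed in Y-linked signal (8.71 and 4.85). With the Y-linked mean as a covariate the Gzmb difference was -0.47, beside -0.20 without it. That covariate rests largely on Tet2-/- Th17 replicate 2, since all other arrays lay at 7.82 to 8.80. Without that replicate the Gzmb difference was -0.55, and without Tet2-/- Th17 replicate 1 it was 0.15. The covariate value is thus no estimate freed of donor sex. The difference of the Tet2 effects between cell types was not called for any granule gene (adjusted p = 0.999 for each, limma; 0.00% of all genes called). An unadjusted p under 0.05 was found for 2 of the 9, Serpinb9 (0.48, unadjusted p = 0.0342) and Serpinb6b (0.68, unadjusted p = 0.00300), beside 4.55% of all genes. Serpinb6b was lower without overlap in Tet2-/- Th1 cells and higher in Tet2-/- Th17 cells, as were 3.01% of all genes, and 4.82% moved in opposite directions either way.

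**Figure D5:**
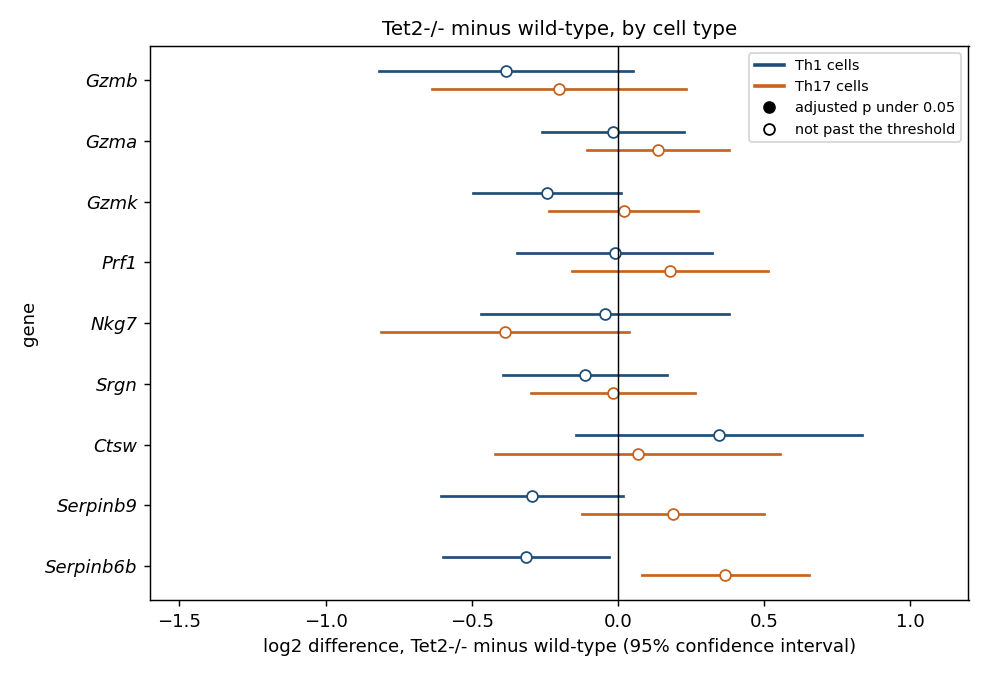
Log2 difference, Tet2-/- minus wild-type (horizontal axis), for each granule gene (vertical axis) in Th1 and in Th17 cells; points are fitted differences and bars 95% intervals, and no point has an adjusted p under 0.05. All intervals lie between -0.82 and 0.83, and the Serpinb6b points stand on opposite sides of 0, at -0.31 in Th1 and 0.37 in Th17 cells.

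The cell type difference was present in both genotypes for the same 5 genes. Set side by side, wild-type and Tet2-/- cells differed between Th17 and Th1 by -4.84 and -4.66 in Gzmb, -4.53 and -4.87 in Nkg7, -3.36 and -2.88 in Serpinb9, -2.85 and -2.17 in Serpinb6b and -0.98 and -0.79 in Prf1. For 4 of the 5 the Tet2-/- value was nearer 0, and for Nkg7 it was farther. None of the gene sets of the pathway described above held a gene called for the loss of Tet2 in either cell type, the granzymes, death ligands, proteases, serpins, release genes, serglycin genes and regulators alike.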

How the data were processed

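Total RNA of 8 mouse samples was labelled with biotin and hybridised to Affymetrix arrays. The deposited table holds log2 values of 35556 probesets. Per the submitters' processing notes, the authors used Partek and RMA. For versions, filters and the genome build, nothing is given in the sources used here. The log base was read from the range of the values. RMA compresses differences of dim probesets, so folds near the receptor level are uncertain. Of the probesets, 21789 had 1 gene symbol, 1621 several and 12146 none listed. Of the single-symbol probesets, 21698 matched a RefSeq gene (GRCm38.p6) by Entrez ID and 0 symbols changed. For the 999 genes with more than 1 probeset the highest mean over the 8 arrays was kept, which left 19938 genes.

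A linear model of group means over the 8 arrays was fitted in limma 3.58.1 (R 4.3.3; lmFit, eBayes with an intensity trend; 4 residual and 8.44 prior degrees of freedom). It was also run on simulated data with independent noise. Those data held no shared shift of dim signal and no sex-linked differences, so that run does not bear on either. Tests were two-sided with Benjamini-Hochberg adjustment over all genes. SE and 95% intervals come from this fit. On separate animals the labels give only the word "biological". Xist signal differed between the replicates of both Th17 groups (5.20 and 10.1 in wild-type, 8.62 and 11.3 in Tet2-/-). The number of donors behind each sample is not given. The p-values measure the spread between these samples, pooled over the 4 groups and moderated across genes. Depth does not apply to arrays, and their number limits the precision. Same-numbered arrays did not deviate together (correlations of -0.19 to 0.05), so the numbers were not used as pairs.

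The members, gene lists and tests were chosen with earlier results of these data known. The text names every member, the called genes of the pathway lists, the 5 genes most like Gzmb, Prf1 and Nkg7, and chromosome neighbours. Of the neighbours, Cldnd2, Slc29a3, Adamts14 and Atp12a were chosen after their values were seen, as was Ctsl. Alternatives were all probesets, the mean of a gene's probesets, a filter on dim genes, no intensity trend, quantile normalization, a replicate block, a Y-linked covariate, only the 4 arrays compared, each array left out, and centring on receptor genes.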

Additional observations from a re-analysis of the deposited data

Results flagged for a closer look

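Serpinb6b was the 1 granule gene whose arrays moved in opposite directions with the loss of Tet2: both Tet2-/- Th1 arrays lay below both wild-type Th1 arrays (8.96 and 9.17 against 9.49 and 9.26) and both Tet2-/- Th17 arrays above both wild-type Th17 arrays (6.96 and 6.82 against 6.45 and 6.59). The difference of the effects, Th17 minus Th1, was 0.68 on the log2 scale (95% interval 0.28 to 1.09; unadjusted p = 0.00300, adjusted p = 0.999, limma), so it was not past the threshold over all genes. Opposite movement without overlap was found in 4.82% of all genes, and lower in Th1 with higher in Th17 in 3.01%. The wild-type Th17 mean was not above the receptor level.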

How the results depend on the processing

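Gzmb, Nkg7, Serpinb9 and Serpinb6b were called lower in Th17 cells in both genotypes under all 17 alternatives, and Prf1 in wild-type cells under all 17. In Tet2-/- cells Prf1 lost its call with all probesets tested (adjusted p = 0.0665) and without Th17 Tet2-/- replicate 1 (0.0794). Ctsw was called higher in wild-type Th17 cells with dim genes left out (adjusted p = 0.0486, limma), a setting that tests fewer genes and keeps 7 of the 9 granule genes. Among the smaller pathway calls, Stx11 kept its wild-type call in 11 of the 17 alternatives and Cldnd2 in 10, and in Tet2-/- cells Chst12 kept its call in 12, Chsy1 in 7 and Vamp7 and Kif5b in 13 each. No granule gene was called for the loss of Tet2 under any alternative. Of 746 alternative values of the granule genes, 702 kept direction and side of the threshold, 2 lost a call, 6 gained one and 36 changed sign, the last only where the main difference was not called. The cause of the changes was not tested.

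Counts of all genes depended more on the setting. For wild-type cell types 1689 genes were called (1056 higher in Th17), 622 with all probesets tested, 667 to 1560 with 1 array left out (667 without Th17 wild-type replicate 2) and 6678 (6461 higher) with arrays centred on receptor genes. For Tet2-/- cell types 2078 were called (1423 higher), 1064 with all probesets, 815 to 2383 with 1 array left out (815 without Th17 Tet2-/- replicate 1) and 6207 (5965 higher) with that centring. For the loss of Tet2 in Th1 cells 1 gene was called, 0 with all probesets, 0 with only the 4 arrays compared, 0 to 2 with 1 array left out and 5 with the centring. In Th17 cells 0 were called, 2 with dim genes left out, 0 to 9 with 1 array left out and 14 with the centring, and for the difference of both effects 0, 0 to 4 and 2. With the replicate block, whose numbers do not pair these samples, 1411 genes were called between wild-type cell types, and the granule genes called were 5 in each genotype, as without it. The fit with the centring had 42.4 prior degrees of freedom, beside 8.44 in the main fit.

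Sign changes with quantile normalization were Gzma at 0.014 for Tet2 loss in Th1, Gzma at 0.011 between wild-type and Gzmk at 0.00078 between Tet2-/- cell types. With the Y-linked covariate they were Gzmk at -0.038 and Srgn at 0.053 for Tet2 loss in Th17 and Gzmb at -0.074 for the difference of effects. With the centring they were Gzmk at -0.052 and Ctsw at -0.0030 for Tet2 loss in Th17, Gzma at 0.26 and Srgn at 0.14 between wild-type and Gzmk at 0.23 and Srgn at 0.22 between Tet2-/- cell types. With 1 array left out, Tet2 loss in Th1 ran from -0.087 to 0.057 in Gzma, -0.24 to 0.22 in Prf1 and -0.40 to 0.31 in Nkg7. Tet2 loss in Th17 ran from -0.55 to 0.15 in Gzmb, -0.085 to 0.12 in Gzmk, -0.24 to 0.38 in Ctsw and -0.11 to 0.073 in Srgn. In the same comparison, with no change of sign, Serpinb9 ran from 0.016 to 0.36, Prf1 from 0.061 to 0.29 and Gzma from 0.058 to 0.22. The difference of effects ran from -0.17 to 0.53 in Gzmb, -0.040 to 0.42 in Prf1, -0.69 to 0.0094 in Nkg7, -0.59 to 0.033 in Ctsw and -0.013 to 0.20 in Srgn. Between cell types, Gzma ran from -0.11 to 0.021 in wild-type, and Gzmk from -0.15 to 0.045 and Srgn from -0.18 to 0.038 in Tet2-/- cells.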

Other observations

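The 3 probesets carry the symbols of several serpin genes (Serpinb9g, Serpinb9d, Serpinb9e and Serpinb9f) and were left out of the fit. Their group means lay between 5.02 and 5.80, not above the receptor level in any group, where Serpinb9 itself reached 8.70 in wild-type Th1 cells.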
